A study of Mus musculus with 14 samples.

Results

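The genes described here encode 10 enzymes with which red cells remove superoxide and peroxides, keep thioredoxin reduced, or reduce biliverdin and flavins. Every probe set on the array whose platform symbol was Prdx1, Prdx2, Prdx3, Gpx1, Gpx4, Cat, Sod1, Sod2, Txnrd1 or Blvrb was taken, which gave 26 of the 45101 probe sets. Of these, 21 carried 1 of the symbols alone. The other 5 carried Prdx1 together with Gm21399, so no signal can be assigned to Prdx1 itself. The remaining 9 genes all passed the filter on low values, a log2 signal no lower than 6 on 3 or more of the 14 arrays, through 16 of their 21 probe sets. On the whole array 7392 of 18193 genes passed it.

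The study profiled blood of mouse embryos at stage E12.5 in 4 groups. Cbfb+/MYH11 embryos carry 1 Cbfb allele replaced by the leukaemia fusion of Cbfb with the smooth muscle myosin gene MYH11 (4 arrays), and their WT littermates are Cbfb+/+ embryos of the same matings of fusion chimeras with C57/Bl6 females (4 arrays). Cbfb-/- embryos lack both copies of Cbfb (3 arrays), and their littermates, called Cbfb+/+ here, come from the same matings between Cbfb+/- parents (3 arrays). Each RNA came from the pooled blood of 8 to 10 embryos of a genotype. Arrays of a group are titled technical replicates, and p-values here therefore rest on array-to-array spread, which may be technical and leaves out the spread between litters. Nothing in the labels sorts the blood, so every value is a mean over all its cells, and fewer cells of a type cannot be told apart from less RNA per cell.

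Cbfb encodes the partner subunit that RUNX transcription factors need for stable DNA binding, and embryos of both mutant genotypes are known to lack definitive blood cells and to die in mid-gestation. The circulating red cells at this age are mostly primitive erythrocytes from the yolk sac. Red cells carry oxygen on haem iron, and the superoxide that escapes from oxyhaemoglobin is turned into hydrogen peroxide by superoxide dismutase, which peroxiredoxins, glutathione peroxidases and catalase then reduce. Mice that lack Prdx2 develop haemolytic anaemia with oxidised haemoglobin, and mice that lack Prdx1 do so with age.

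The promoters of 5 of these genes are shown because each has a probe set that was called in a mutant comparison below. Each is the 250 bases before a transcription start in RefSeq (GRCm38.p6), written 5′ to 3′ on the gene's own strand. Capitals mark matches on either strand to any of 4 motifs: the antioxidant response element core TGACNNNGC, the GATA site AGATAA, the RUNX site TGTGGT and the KLF site CCNCNCCC.
Cat, chr2:103485154-103485403, minus strand: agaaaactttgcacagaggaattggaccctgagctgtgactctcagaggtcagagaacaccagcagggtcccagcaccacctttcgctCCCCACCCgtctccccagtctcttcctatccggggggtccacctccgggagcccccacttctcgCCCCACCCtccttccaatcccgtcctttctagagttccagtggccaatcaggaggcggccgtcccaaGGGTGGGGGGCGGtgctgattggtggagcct
Sod2, chr17:13007589-13007838, plus strand: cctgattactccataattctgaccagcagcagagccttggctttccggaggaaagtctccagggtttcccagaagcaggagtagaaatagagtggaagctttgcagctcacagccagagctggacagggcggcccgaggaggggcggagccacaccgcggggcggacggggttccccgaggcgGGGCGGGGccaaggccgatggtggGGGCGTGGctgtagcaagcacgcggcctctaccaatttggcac
Prdx3, chr19:60874539-60874788, minus strand: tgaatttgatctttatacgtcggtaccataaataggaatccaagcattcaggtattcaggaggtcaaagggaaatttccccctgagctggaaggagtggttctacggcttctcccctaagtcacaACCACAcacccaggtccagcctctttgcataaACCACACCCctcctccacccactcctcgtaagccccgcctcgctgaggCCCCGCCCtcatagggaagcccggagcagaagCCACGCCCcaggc
Txnrd1 (the second of 3 start sites), chr10:82858956-82859205, plus strand: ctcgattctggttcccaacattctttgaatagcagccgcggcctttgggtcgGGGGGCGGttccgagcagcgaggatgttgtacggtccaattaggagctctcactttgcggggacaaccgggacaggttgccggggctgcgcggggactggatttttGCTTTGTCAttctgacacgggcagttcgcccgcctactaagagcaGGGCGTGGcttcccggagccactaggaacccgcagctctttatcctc
Prdx2, chr8:84969372-84969621, plus strand: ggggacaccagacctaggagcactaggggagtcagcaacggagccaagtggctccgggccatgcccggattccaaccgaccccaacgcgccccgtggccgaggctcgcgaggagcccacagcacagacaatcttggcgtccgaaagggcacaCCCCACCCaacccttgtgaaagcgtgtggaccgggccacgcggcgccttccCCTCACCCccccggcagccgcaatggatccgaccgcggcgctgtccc

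The capitals in the Cat promoter are 4 KLF matches, and the last 2, at 31 and 26 bases before the start, overlap. Sod2 and Prdx2 had 2 KLF matches each. Prdx3 had 3 KLF matches and 2 RUNX matches at 125 and 93 bases before the start, the second of which overlaps the KLF match at 92 bases. The printed Txnrd1 window had 1 antioxidant response element core at 92 bases before the start and 2 KLF matches. The windows of the other 2 Txnrd1 start sites held 0 matches to the 4 motifs. Over all 16 windows of the 10 genes, 3 windows (Prdx1, Txnrd1 and Sod1) held the antioxidant response element core, 2 windows (Blvrb and Prdx3) a RUNX match, 11 windows a KLF match and 0 windows a GATA match. Among all 32851 windows of the table the shares were 10.2% for the antioxidant response element core, 14.05% for RUNX, 45.9% for KLF and 9.99% for GATA. These are matches of letters and say nothing of whether a factor was bound.

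The arrays read red cell RNA in every group. The summed linear signal of 9 red cell markers, globins included, was 84995 to 91880 in Cbfb+/MYH11 blood against 85623 to 88365 in WT blood, and 89120 to 89548 in Cbfb-/- blood against 90580 to 91585 in Cbfb+/+ blood. The globins weigh most in this sum and lay at log2 13.96 to 14.55, up to the highest signal of any array. With the fusion the sum was 91716 to 91880 against 88291 to 88365 in arrays 1 and 2. It was 84995 to 85363 against 85623 to 85815 in arrays 3 and 4. None of the 9 markers was called in the fusion comparison, beside 36.1% of all tested genes. In Cbfb-/- blood 2 of the 9 fell (Ermap and Ank1), beside 6.66% of all tested genes. Slc4a1, Alas2, Epb42, Ermap, Rhag and Ank1 were lower in every Cbfb-/- than in every Cbfb+/+ array. The globins Hbb-y, Hba-x and Hbb-bh1 were higher in every Cbfb-/- array, so the sum does not show the lower markers. Markers of other cells differed between arrays. The summed signal of 12 macrophage genes was 923 to 1156 in Cbfb+/MYH11 and 796 to 3351 in WT blood, and 519 to 581 in Cbfb-/- and 2257 to 2335 in Cbfb+/+ blood. That of 8 platelet genes was 1630 to 2123 in Cbfb+/MYH11 and 1783 to 5173 in WT blood, and 934 to 956 in Cbfb-/- and 3453 to 3595 in Cbfb+/+ blood. That of 4 basophil or mast cell genes was 975 to 1573 in Cbfb+/MYH11 against 71.4 to 99.7 in WT blood, and 58.7 to 71.9 in Cbfb-/- against 87.2 to 95.8 in Cbfb+/+ blood. The 7 liver or visceral endoderm genes summed to 275 to 1014 in Cbfb+/MYH11 and 362 to 5130 in WT blood, and to 4685 to 5118 in Cbfb-/- and 1857 to 1893 in Cbfb+/+ blood. The 6 neural genes summed to 357 to 1110 in Cbfb+/MYH11 and 76.3 to 511 in WT blood, and to 2369 to 2598 in Cbfb-/- and 178 to 204 in Cbfb+/+ blood. The 6 cell cycle genes measured summed to 4395 to 4941 in Cbfb+/MYH11 against 1107 to 2166 in WT blood, and 3088 to 3257 in Cbfb-/- against 1913 to 1997 in Cbfb+/+ blood. In the fusion cross the red cell, macrophage, platelet, liver and neural sums overlapped between the groups and split by array pair. The macrophage sum was 923 to 931 in Cbfb+/MYH11 arrays 1 and 2 against 2921 to 3351 in WT arrays 1 and 2, but 1149 to 1156 in Cbfb+/MYH11 arrays 3 and 4 against 796 to 811 in WT arrays 3 and 4. The liver or visceral endoderm sum turned over in the same way, at 275 to 302 in Cbfb+/MYH11 against 5063 to 5130 in WT arrays 1 and 2, and 993 to 1014 in Cbfb+/MYH11 against 362 to 383 in WT arrays 3 and 4. Single macrophage genes did not all follow their sum. In arrays 3 and 4 Csf1r, Lyz2, Cd14 and Cd68 were higher with the fusion, and the rest of the 12 macrophage genes were lower. The platelet sum was lower with the fusion in both pairs. It was 2056 to 2123 against 4397 to 5173 in arrays 1 and 2, and 1630 to 1640 against 1783 to 1816 in arrays 3 and 4. In arrays 3 and 4 Gp5, Itga2b and Tubb1 were higher with the fusion, and the rest of the 8 platelet genes were lower. The neural sum was higher with the fusion in both pairs. It was 357 to 376 against 76.3 to 76.7 in arrays 1 and 2, and 1083 to 1110 against 490 to 511 in arrays 3 and 4. The basophil or mast cell and cell cycle sums were higher in Cbfb+/MYH11 than in WT arrays without overlap. The part of these markers in the results below was not tested.

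In the Cbfb+/MYH11 cross the arrays of both groups formed pairs. The SD of the differences between 2 arrays of a group, over the genes past the filter, was 0.11 to 0.28 within arrays 1 and 2 or arrays 3 and 4, and 0.36 to 0.71 across them. In the Cbfb-/- cross it was 0.20 to 0.22. Values within each pair are therefore given beside the pooled ones for the enzymes. They are also given for other named genes where the pairs differ in the call, and for some that differ in size. For enzymes without a fusion call, the log2 changes within arrays 1 and 2 and within arrays 3 and 4 were -0.03 and -0.16 for the brighter Prdx2 probe set, -0.19 and -0.21 for Gpx1, -0.40 and -0.19 for Gpx4, -0.03 and 0.08 for Blvrb, and -0.19 and -0.20 for the brightest probe set of Prdx1 and Gm21399 (1416000_a_at), none called. The only Cbfb probe set with a single symbol followed the pairs as well: its log2 signal was 8.44, 8.56, 6.91 and 7.06 in Cbfb+/MYH11 arrays 1 to 4 against 6.62, 6.57, 8.31 and 8.14 in WT arrays 1 to 4. It was 7.03, 6.80 and 6.98 in Cbfb-/- arrays against 6.52, 6.56 and 6.27 in Cbfb+/+ arrays. Cbfb signal was thus not lower in the arrays labelled Cbfb-/-. Where this probe set lies relative to the targeted exons is not given in the sources used here, so it does not check the genotypes, and the genotypes below are those of the labels.

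The question each mutant comparison asks of these genes is whether blood formed with the fusion, or without Cbfb, holds more or less of their mRNA. Each gene is represented by its brightest single-symbol probe set. A change was called at an adjusted p under 0.05 (limma, Benjamini-Hochberg over all 7392 genes) and at least 1.5-fold, and "rose" and "fell" refer to such calls. In Cbfb+/MYH11 blood Cat and Sod2 fell and Prdx3 rose against WT blood, while the other 6 genes were not called. Those 3 calls of 9 genes stand beside 36.1% of all tested genes called in that comparison, 30.5% higher and 5.63% lower. In Cbfb-/- blood Txnrd1 rose against Cbfb+/+ blood and the other 8 genes were not called, beside 26.2% of all tested genes, 19.5% higher and 6.66% lower. The median log2 change of the 9 genes was -0.09 with the fusion and -0.08 without Cbfb, where the median over all tested genes was 0.26 and 0.13. Against those medians the fusion changes were -1.16 for Cat, -0.96 for Sod2 and 0.44 for Prdx3, and the Cbfb-/- change of Txnrd1 was 0.58.

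**Figure D1:**
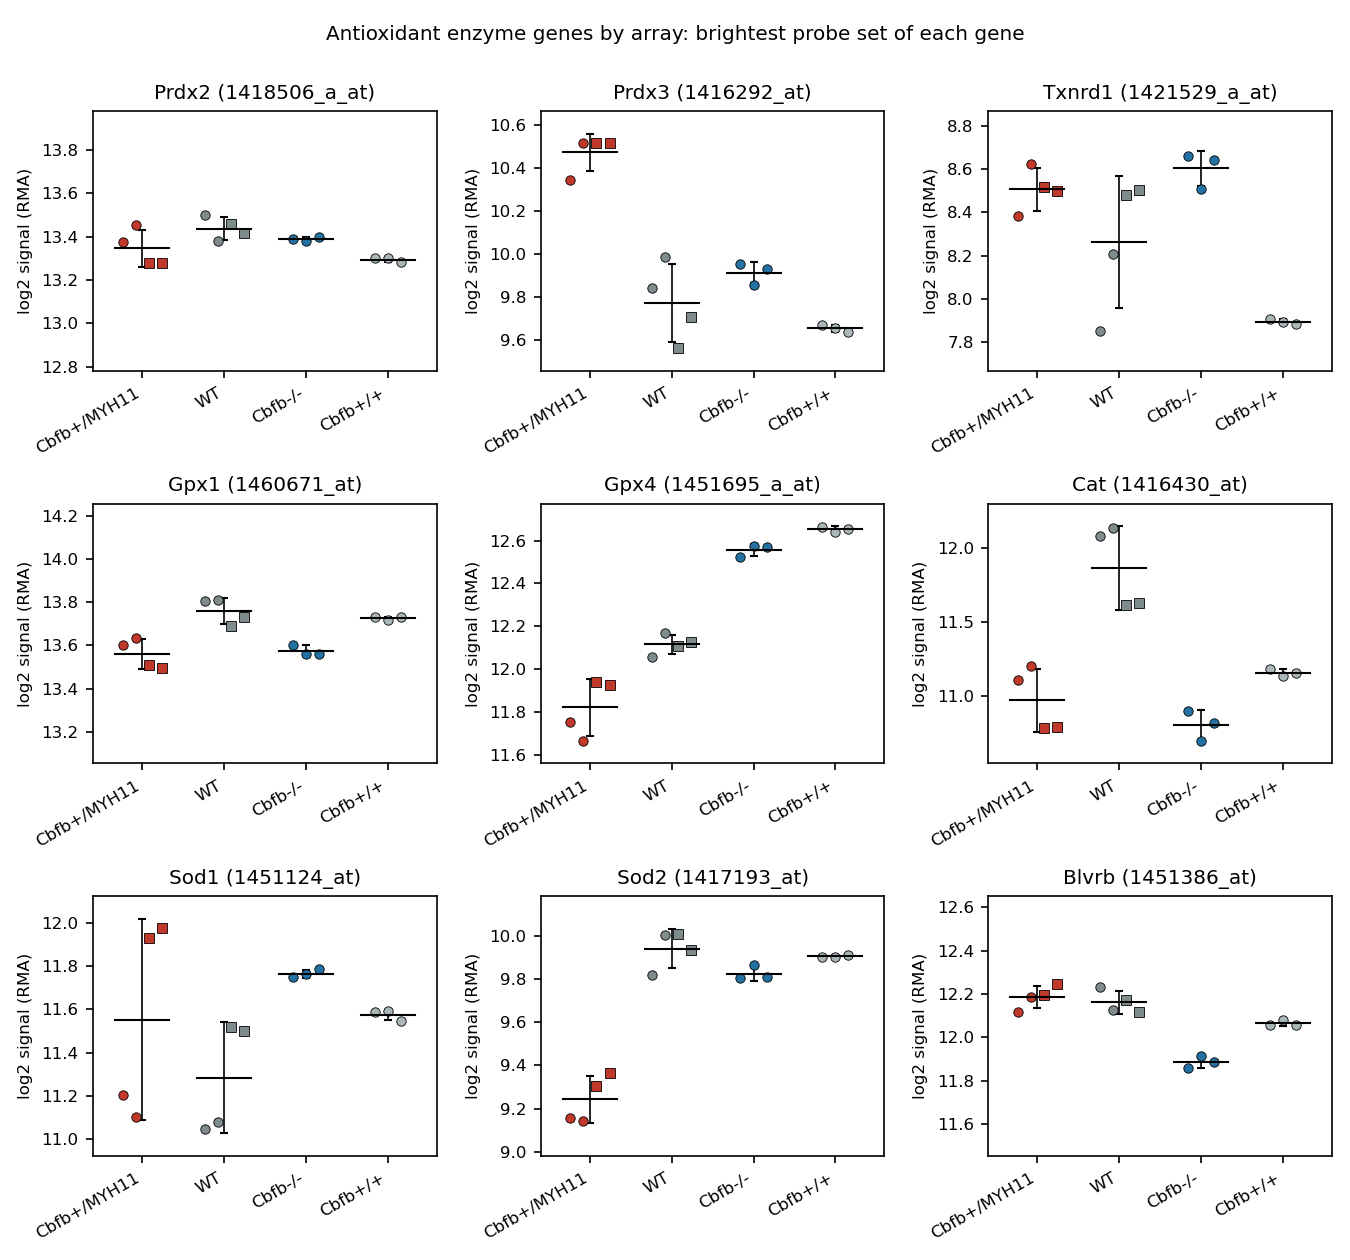
Log2 signal (vertical axis) of the brightest probe set of each of the 9 genes in the 4 groups (horizontal axis); each point is 1 array, squares are arrays 3 and 4 of the Cbfb+/MYH11 cross, and bars give the mean ± SD. Cat and Sod2 lie lower in Cbfb+/MYH11 than in WT arrays with no overlap, Prdx3 lies higher, and Txnrd1 lies higher in Cbfb-/- than in Cbfb+/+ arrays.

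**Figure D2:**
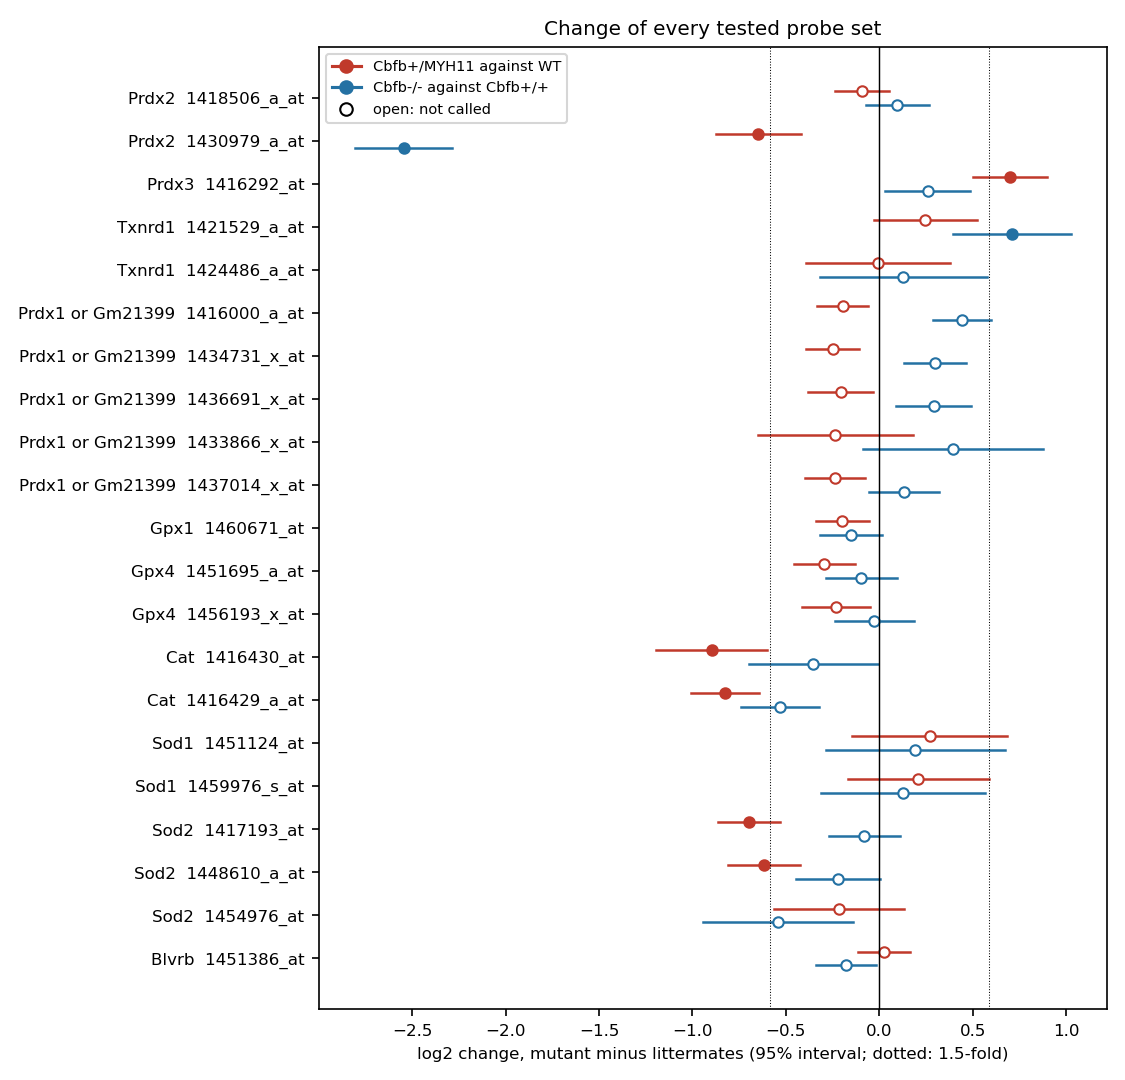
Log2 change with its 95% interval (horizontal axis) for the tested probe sets of the 10 genes in each mutant comparison; filled symbols were called and dotted lines mark 1.5-fold. The Prdx2 probe set 1430979_a_at in Cbfb-/- blood (-2.55) lies furthest from 0.

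Prdx2, the cytosolic peroxiredoxin that is among the most abundant proteins of red cells, gave different results with its 2 probe sets. The brighter one (1418506_a_at) had 25 probe sets above it on the array. Its log2 signal was 13.37, 13.45, 13.28 and 13.28 in Cbfb+/MYH11 arrays against 13.50, 13.38, 13.46 and 13.42 in WT arrays, and the groups overlapped. It was 13.39, 13.38 and 13.40 in Cbfb-/- arrays against 13.30, 13.30 and 13.28 in Cbfb+/+ arrays, without overlap but over a narrow range. The log2 changes were -0.09 with the fusion (95% interval -0.24 to 0.05, adjusted p = 0.244) and 0.10 without Cbfb (-0.07 to 0.26, adjusted p = 0.322).

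The dimmer Prdx2 probe set (1430979_a_at) separated all 4 groups. Log2 signal of 1430979_a_at was 10.94, 11.14, 10.67 and 10.74 in Cbfb+/MYH11 arrays against 11.59, 11.57, 11.42 and 11.51 in WT arrays. In the other cross it was 9.46, 9.18 and 9.31 in Cbfb-/- arrays against 11.88, 11.86 and 11.85 in Cbfb+/+ arrays. In both crosses every mutant array lay below every littermate array. Tested over the 12190 probe sets past the filter, this signal fell 5.84-fold without Cbfb (log2 change -2.55, 95% interval -2.81 to -2.28, adjusted p = 1.20e-07), where 27.1% of probe sets were called and 7.31% fell. With the fusion it fell 1.57-fold (-0.65, -0.88 to -0.42, adjusted p = 2.22e-04), where 36.0% were called and 5.64% fell. The fusion effect exceeded the Cbfb-/- effect, that is, was less negative, by 1.90 (1.55 to 2.24, adjusted p = 4.45e-06), beside 20.6% of probe sets called for the difference, 14.7% higher. The fusion call was not made within arrays 1 and 2 (-0.54). It was also lost with arrays centred on their medians (-0.54) and without Cbfb+/MYH11 replicate 3 (-0.58).
The files do not say which Prdx2 transcripts each probe set reads. RefSeq lists 2 Prdx2 pseudogenes, and whether either probe set reads them was not tested.

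**Figure D3:**
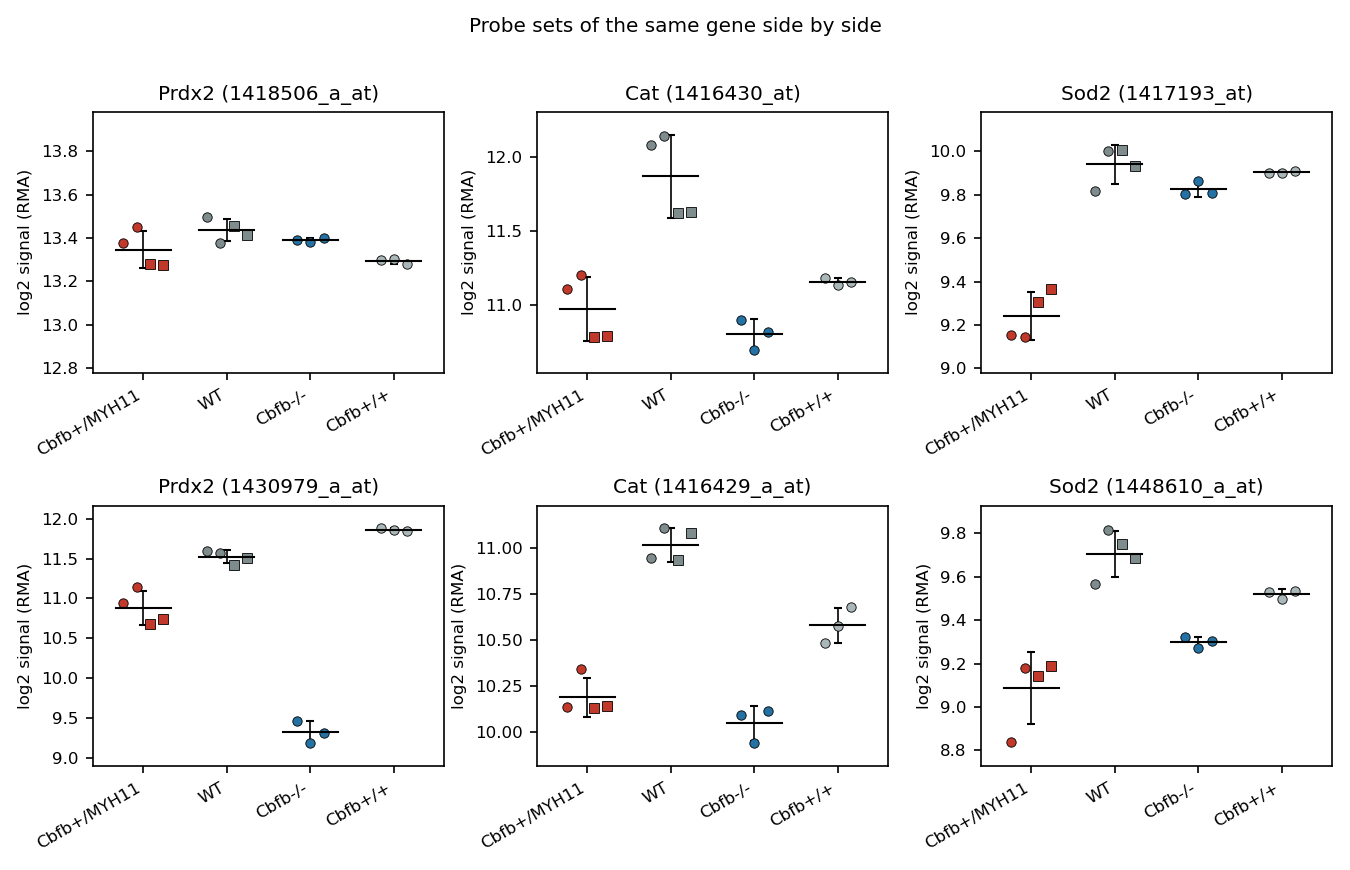
Log2 signal (vertical axis) of 2 probe sets each of Prdx2, Cat and Sod2 in every array of the 4 groups (horizontal axis), with bars for the mean ± SD and squares for arrays 3 and 4 of the Cbfb+/MYH11 cross. The Prdx2 probe set 1430979_a_at lies at 9.18 to 9.46 in Cbfb-/- arrays against 11.85 to 11.88 in Cbfb+/+ arrays, while 1418506_a_at stays between 13.28 and 13.50 in all groups.

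Prdx3, the peroxiredoxin of mitochondria, rose in Cbfb+/MYH11 blood. The log2 signal of its only probe set was 10.34, 10.51, 10.52 and 10.52 in Cbfb+/MYH11 arrays against 9.84, 9.98, 9.56 and 9.71 in WT arrays. Every Cbfb+/MYH11 array lay above every WT array. The means were 10.47 ± 0.09 and 9.77 ± 0.18 (SD, n = 4 each), a 1.62-fold rise (log2 change 0.70, 95% interval 0.50 to 0.89, limma adjusted p = 3.82e-05). It was 0.88 within arrays 3 and 4 and 0.51, below the 1.5-fold floor, within arrays 1 and 2. With quantile normalization it was 0.44 and the call was lost.
In Cbfb-/- blood Prdx3 signal was 9.95, 9.86 and 9.93 against 9.67, 9.65 and 9.64 in Cbfb+/+ blood. The groups did not overlap, but the change of 0.26 (0.03 to 0.48, adjusted p = 0.0611) was not called. The difference between the mutant effects, 0.44 (0.14 to 0.74, adjusted p = 0.0332), was below the fold floor.

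For Prdx1, a cytosolic peroxiredoxin, only the signal it shares with Gm21399 was measured. In the brightest of the 5 shared probe sets (1416000_a_at) it was 11.44, 11.49, 11.46 and 11.42 in Cbfb+/MYH11 arrays against 11.68, 11.63, 11.60 and 11.69 in WT arrays. It was 11.98, 11.87 and 11.92 in Cbfb-/- arrays against 11.52, 11.46 and 11.48 in Cbfb+/+ arrays. Mutant arrays thus lay below their littermates in 1 cross and above them in the other, without overlap in either. Across the 5 probe sets the log2 changes were -0.20 to -0.25 with the fusion and 0.13 to 0.44 without Cbfb, none called. The difference of the mutant effects was called in 1 of the 5, 1416000_a_at (-0.64, 95% interval -0.85 to -0.43, adjusted p = 4.05e-04), beside 5.89% of probe sets with a lower difference. That call was lost with arrays centred on their medians (-0.58). Quantile normalization added calls of the difference for 1434731_x_at (-0.62) and 1436691_x_at (-0.60). It also added a fusion call for 1437014_x_at (-0.63).

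Txnrd1, the cytosolic reductase that returns thioredoxin to its reduced form with NADPH, rose in Cbfb-/- blood. Its log2 signal (1421529_a_at) was 8.66, 8.51 and 8.64 in Cbfb-/- arrays against 7.91, 7.89 and 7.88 in Cbfb+/+ arrays. No Cbfb-/- array came near a Cbfb+/+ array. The means were 8.60 ± 0.08 and 7.89 ± 0.01 (SD, n = 3 each), a 1.63-fold rise (log2 change 0.71, 95% interval 0.39 to 1.02, limma adjusted p = 0.00305). The call was lost with quantile normalization (0.48) and with the mean of the Txnrd1 probe sets (0.27, adjusted p = 0.0552). A dimmer Txnrd1 probe set (1424486_a_at) was at 6.32, 6.54 and 6.49 in Cbfb-/- arrays against 6.43, 6.36 and 6.18 in Cbfb+/+ arrays, overlapping, with a change of 0.13 (-0.32 to 0.57, adjusted p = 0.628).
In the fusion cross Txnrd1 signal was 8.38, 8.63, 8.52 and 8.50 in Cbfb+/MYH11 arrays against 7.85, 8.21, 8.48 and 8.51 in WT arrays. WT arrays 1 and 2 were low and WT arrays 3 and 4 lay among the Cbfb+/MYH11 arrays, so that the change was 0.48 within arrays 1 and 2 and 0.02 within arrays 3 and 4. The pooled change of 0.25 (-0.03 to 0.52, adjusted p = 0.106) was not called, and it was -0.17 with quantile normalization. The difference between the mutant effects, -0.46 (-0.88 to -0.05, adjusted p = 0.0964), was not called either, but it was called with quantile normalization (-0.64) and without WT replicate 1 (-0.60).

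Gpx1, the selenium-dependent glutathione peroxidase of the cytosol, was among the brightest probe sets, with 17 above it. Log2 signals of Gpx1 were 13.60, 13.63, 13.51 and 13.49 in Cbfb+/MYH11 arrays against 13.81, 13.81, 13.69 and 13.73 in WT arrays. It was 13.60, 13.56 and 13.56 in Cbfb-/- arrays against 13.73, 13.72 and 13.73 in Cbfb+/+ arrays. All mutant arrays were below all their littermates. The distances were small: -0.20 with the fusion (95% interval -0.34 to -0.06, adjusted p = 0.0188) and -0.15 without Cbfb (-0.31 to 0.01, adjusted p = 0.118), neither called. The highest signal of any probe set on any array was 14.55.

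Gpx4, the glutathione peroxidase that reduces lipid peroxides within membranes, was higher in both groups of the Cbfb-/- cross than in both groups of the fusion cross. Its log2 signal (1451695_a_at) was 11.75, 11.66, 11.94 and 11.93 in Cbfb+/MYH11 arrays against 12.06, 12.17, 12.11 and 12.13 in WT arrays. It was 12.52, 12.57 and 12.57 in Cbfb-/- arrays against 12.66, 12.64 and 12.66 in Cbfb+/+ arrays. Mutants lay below littermates without overlap in both crosses. The changes were -0.29 (-0.46 to -0.13, adjusted p = 0.00482) with the fusion and -0.10 (-0.29 to 0.09, adjusted p = 0.368) without Cbfb, and the first was below the fold floor. Cbfb+/+ littermates exceeded WT littermates by 0.54 (0.36 to 0.72, adjusted p = 5.33e-04), also below the floor. The second Gpx4 probe set (1456193_x_at) gave -0.23 (adjusted p = 0.0307) and -0.03 (adjusted p = 0.834) in the mutant comparisons. RefSeq lists 2 Gpx4 pseudogenes, and whether these probe sets read them was not tested.

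Cat encodes catalase, which splits hydrogen peroxide in peroxisomes and in the red cell cytosol, and it fell in Cbfb+/MYH11 blood with both of its probe sets. The brighter one (1416430_at) had a log2 signal of 11.11, 11.20, 10.78 and 10.79 in Cbfb+/MYH11 arrays against 12.08, 12.14, 11.62 and 11.63 in WT arrays. The groups did not overlap, and arrays 1 and 2 were above arrays 3 and 4 in both. The means were 10.97 ± 0.22 and 11.87 ± 0.28 (SD, n = 4 each), a 1.86-fold fall (log2 change -0.90, 95% interval -1.20 to -0.60, limma adjusted p = 1.34e-04), and the change was -0.96 within arrays 1 and 2 and -0.84 within arrays 3 and 4. The second probe set (1416429_a_at) was at 10.13, 10.34, 10.13 and 10.14 in Cbfb+/MYH11 arrays against 10.94, 11.11, 10.93 and 11.08 in WT arrays, with no overlap and a change of -0.83 (adjusted p = 6.69e-06).

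In Cbfb-/- blood Cat was not called. Its log2 signal was 10.90, 10.69 and 10.82 in Cbfb-/- arrays against 11.18, 11.13 and 11.15 in Cbfb+/+ arrays for the brighter probe set, without overlap. That change was -0.35 (-0.70 to -0.01, adjusted p = 0.0860) and the second probe set gave -0.53 (-0.74 to -0.32, adjusted p = 0.00154), below the fold floor, so neither was called, although the second was with quantile normalization (-0.66). The fusion and Cbfb-/- effects differed by -0.54 (-0.999 to -0.09, adjusted p = 0.0749), which was not called; it was called with quantile normalization (-0.77) and without WT replicate 3 (-0.63) or WT replicate 4 (-0.62). Cat also differed between the littermate groups. It was lower in Cbfb+/+ than in WT blood by a log2 change of -0.71 (-1.03 to -0.39, adjusted p = 0.00393), the only one of the 9 genes called there, beside 11.2% of all tested genes, 5.48% higher and 5.75% lower. That call was lost with the mean of the Cat probe sets (-0.57).

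Sod1, the cytosolic copper and zinc superoxide dismutase, split by array pair in the fusion cross. Log2 signals of Sod1 were 11.20, 11.10, 11.93 and 11.98 in Cbfb+/MYH11 arrays against 11.05, 11.08, 11.52 and 11.50 in WT arrays. Arrays 3 and 4 were above arrays 1 and 2 in both groups, and the groups overlapped. The pooled change was 0.27 (-0.14 to 0.68, adjusted p = 0.235), against 0.09 within arrays 1 and 2 and 0.45 (adjusted p = 1.79e-04, below the fold floor) within arrays 3 and 4. In the other cross Sod1 was at 11.75, 11.76 and 11.79 in Cbfb-/- arrays against 11.59, 11.59 and 11.55 in Cbfb+/+ arrays, without overlap, a change of 0.19 (-0.29 to 0.67, adjusted p = 0.490). Its second tested probe set (1459976_s_at) gave 0.21 and 0.13 in the mutant comparisons, not called, and 3 further Sod1 probe sets were below the filter.

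Sod2, the manganese superoxide dismutase of mitochondria, fell in Cbfb+/MYH11 blood. Its log2 signal (1417193_at) was 9.16, 9.14, 9.31 and 9.36 in Cbfb+/MYH11 arrays against 9.82, 10.00, 10.01 and 9.93 in WT arrays. No Cbfb+/MYH11 array reached the lowest WT array. The means were 9.24 ± 0.11 and 9.94 ± 0.09 (SD, n = 4 each), a 1.62-fold fall (log2 change -0.70, 95% interval -0.86 to -0.53, limma adjusted p = 9.78e-06), with -0.76 within arrays 1 and 2 and -0.63 within arrays 3 and 4. The call was lost with the mean of the Sod2 probe sets (-0.49). A second probe set (1448610_a_at) was at 8.84, 9.18, 9.14 and 9.19 in Cbfb+/MYH11 arrays against 9.57, 9.82, 9.75 and 9.69 in WT arrays and fell too (-0.62, adjusted p = 1.00e-04). That second call was lost with arrays centred on their medians (-0.51), within arrays 3 and 4 (-0.55), without Cbfb+/MYH11 replicate 1 (-0.54) and without WT replicate 2 (-0.58). A further, dimmer probe set (1454976_at) gave -0.21 (-0.56 to 0.13, adjusted p = 0.261).

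Without Cbfb, Sod2 signal was 9.80, 9.86 and 9.81 in Cbfb-/- arrays against 9.90, 9.90 and 9.91 in Cbfb+/+ arrays. The groups did not overlap but were close, and the change was -0.08 (-0.27 to 0.11, adjusted p = 0.461). Sod2 was the only one of the 9 genes for which the difference between the mutant effects was called: -0.62 (-0.87 to -0.37, limma adjusted p = 0.00168), beside 20.9% of all tested genes, 14.9% higher and 6.07% lower. The call was lost with arrays centred on their medians (-0.56), with the mean of the Sod2 probe sets (-0.15) and without Cbfb+/MYH11 replicate 2 (-0.58). The other 2 tested Sod2 probe sets gave Cbfb-/- changes of -0.22 (adjusted p = 0.0980) and -0.54 (adjusted p = 0.0331, below the fold floor), and differences of -0.40 (adjusted p = 0.0504) and 0.33 (adjusted p = 0.364).

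Blvrb, the biliverdin and flavin reductase that is abundant in red cells, was not called in either cross. Log2 signals of Blvrb were 12.12, 12.19, 12.19 and 12.25 in Cbfb+/MYH11 arrays against 12.23, 12.13, 12.17 and 12.12 in WT arrays, and the groups overlapped. The change was 0.02 (-0.11 to 0.16, adjusted p = 0.748), and -0.21 with quantile normalization. In the other cross Blvrb was at 11.86, 11.91 and 11.89 in Cbfb-/- arrays against 12.06, 12.08 and 12.05 in Cbfb+/+ arrays. Every Cbfb-/- array was below every Cbfb+/+ array, with a change of -0.18 (-0.34 to -0.02, adjusted p = 0.0632) that was not called.

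The wider redox system was examined through 86 further genes, of which 82 had a probe set and 69 passed the filter. Of these 69, 19 rose and 8 fell in Cbfb+/MYH11 blood, where 30.5% of all tested genes rose and 5.63% fell, with a median log2 change of 0.23 beside 0.26 over all tested genes. In Cbfb-/- blood 14 rose and 8 fell, where 19.5% of all tested genes rose and 6.66% fell, with a median of 0.06 beside 0.13. The split depended on the scaling: with quantile normalization 10 rose and 10 fell with the fusion, and 7 rose and 15 fell without Cbfb. With the mean of probe sets, which left 55 of the genes, 13 rose and 7 fell with the fusion and 7 rose and 7 fell without Cbfb. The counts of the lists below are to be read against the same shares of all genes. Among genes that rose, Pon2, Blvra and Secisbp2 reached log2 6 only in Cbfb+/MYH11 arrays, and Me2 and Eefsec only in mutant arrays. Gpx8, which rose without Cbfb, reached it only in Cbfb-/- arrays and WT arrays 3 and 4. All these genes passed the filter through the groups where they were high, and their p-values are to be read with that limit. Among the 27 fusion calls and the 22 Cbfb-/- calls, 8 genes were shared, all with the same sign. Eefsec, Me2, Mthfd1, Mthfd2, Park7 and Tkt were higher in both, and Hmox1 and Mafg were lower in both. Within the array pairs of the fusion cross, 22 rose and 9 fell in arrays 1 and 2, where 44.6% of all tested genes were called, 37.0% higher and 7.63% lower. In arrays 3 and 4, 19 rose and 9 fell, where 31.0% were called, 24.6% higher and 6.44% lower. In both pairs with the same sign, 15 genes were higher and 7 lower. Of the genes named below as called with the fusion, Park7 and Pgd were not called within arrays 3 and 4, and the others were called within both pairs. The basophil and cell cycle sums given above were higher in every Cbfb+/MYH11 than in every WT array, the macrophage and platelet sums were lower in every Cbfb-/- than in every Cbfb+/+ array, and their part was not tested.

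**Figure D4:**
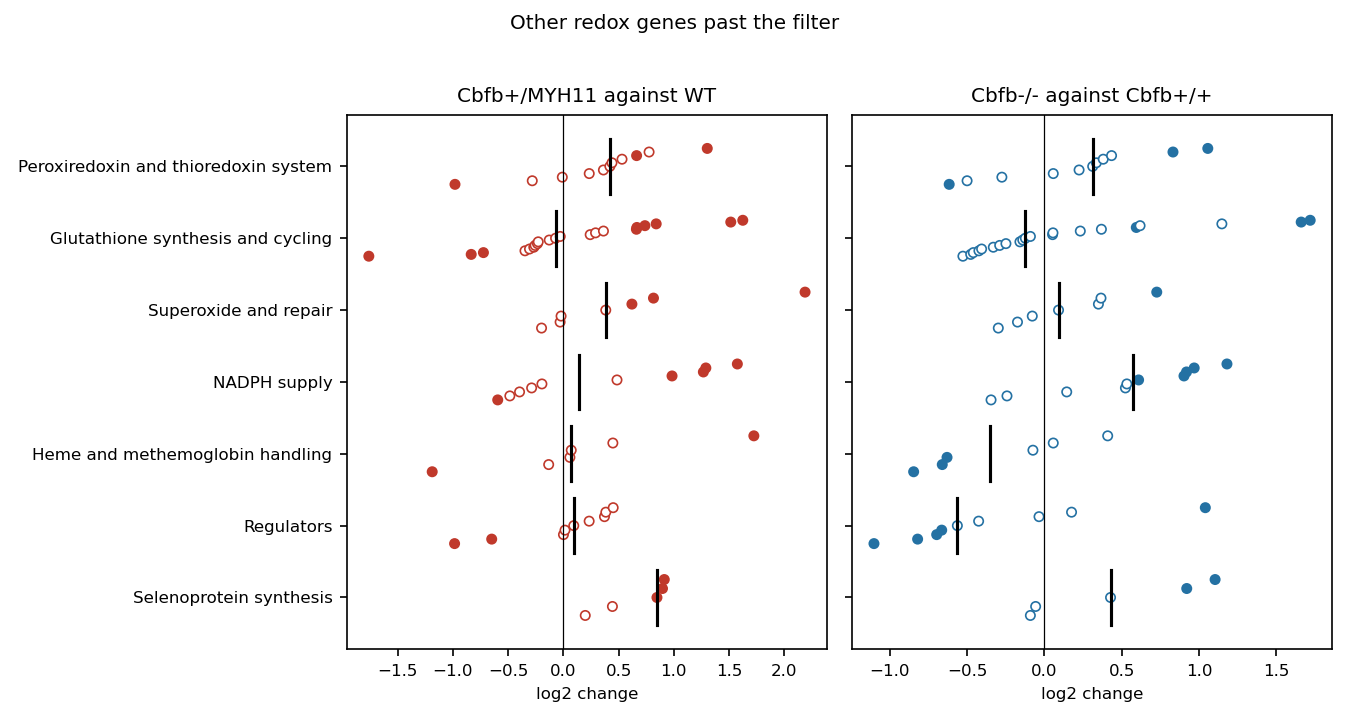
Log2 change (horizontal axis) of the 69 other redox genes, grouped by list (vertical axis), in Cbfb+/MYH11 against WT blood and in Cbfb-/- against Cbfb+/+ blood; filled points were called and the short vertical lines are list medians. Pon2 (2.19) lies furthest right with the fusion and Gsta4 (1.72) without Cbfb.

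The list of regulators of the antioxidant response held 9 tested genes, among them the enzyme gene Nqo1. With the fusion 0 rose and 2 fell, Mafg and Nqo1, and without Cbfb 1 rose and 4 fell. Of all tested genes, 30.5% rose and 5.63% fell with the fusion, and 19.5% rose and 6.66% fell without Cbfb. Nfe2l2 encodes NRF2, the activator that binds antioxidant response elements with small MAF proteins. It was at 8.22, 8.36, 8.28 and 8.20 in Cbfb+/MYH11 arrays against 8.08, 7.97, 7.78 and 7.70 in WT arrays, and at 7.54, 7.14 and 7.47 in Cbfb-/- arrays against 7.79, 7.76 and 7.87 in Cbfb+/+ arrays. Mutant arrays lay above littermates in the fusion cross and below them in the other. Neither change passed the fold floor (0.38, adjusted p = 0.00738, with 0.27 within arrays 1 and 2 and 0.50 within arrays 3 and 4, and -0.43, adjusted p = 0.0156), but their difference of 0.81 was called (adjusted p = 0.00271). That call was lost with quantile normalization (0.61, adjusted p = 0.0534), under which Nfe2l2 fell without Cbfb (-0.64), and with the mean of its probe sets (0.53). Keap1, the adaptor that marks NRF2 for degradation, had log2 changes of 0.45 with the fusion and 0.18 without Cbfb, neither called.
Mafg, a small MAF partner, fell in both mutants. It was at 7.97, 7.99, 7.83 and 7.82 in Cbfb+/MYH11 arrays against 8.51, 8.71, 8.48 and 8.49 in WT arrays (-0.65, adjusted p = 3.60e-05), and at 7.66, 7.53 and 7.47 in Cbfb-/- arrays against 8.37, 8.29 and 8.47 in Cbfb+/+ arrays (-0.82, adjusted p = 1.57e-04). The groups did not overlap in either cross, and the fusion call was lost with arrays centred on their medians (-0.54). Nqo1, an NADPH-dependent quinone reductase and a well known NRF2 target, fell with the fusion (-0.99, adjusted p = 1.33e-06) and had a log2 change of -0.56 without Cbfb, below the floor, which was called with quantile normalization (-0.77) and without replicate 3 of Cbfb-/- or of Cbfb+/+ (both -0.59). Without Cbfb, Foxo3 (-1.10), Bach1 (-0.70) and Mafk (-0.66) fell and Hif1a (1.04) rose. The Hif1a call was lost with quantile normalization (0.81, adjusted p = 0.0505) and in 6 of the 14 fits that each left out 1 array, every Cbfb-/- and Cbfb+/+ array among them (adjusted p up to 0.0983). Bach1, a haem-binding repressor of NRF2 targets, had a log2 change of 0.09 with the fusion. That was -0.18 within arrays 1 and 2 and 0.36 within arrays 3 and 4, neither called. With the fusion Hif1a was at 0.71 within arrays 1 and 2, called, and 0.03 within arrays 3 and 4, not called.

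Among the 21 tested genes of glutathione synthesis and cycling, 6 rose and 3 fell with the fusion, and 3 rose and 0 fell without Cbfb. The shares of all tested genes were 30.5% higher and 5.63% lower with the fusion, and 19.5% and 6.66% without Cbfb. Gclm, the modifier subunit of the rate-limiting enzyme of glutathione synthesis, was at 11.63, 11.68, 11.60 and 11.68 in Cbfb+/MYH11 arrays against 12.31, 12.42, 12.35 and 12.42 in WT arrays. All 4 Cbfb+/MYH11 arrays were lower, and the change was -0.72 (adjusted p = 1.53e-06). In Cbfb-/- blood the log2 change of Gclm was -0.29 (adjusted p = 0.00820), below the floor. Mgst2, a microsomal glutathione transferase, rose with the fusion (1.62, adjusted p = 4.42e-05; 0.96 within arrays 1 and 2 and 2.29 within arrays 3 and 4), while Gsta4, a transferase for lipid aldehydes, rose without Cbfb (1.72, adjusted p = 8.31e-04). The differences between the mutant effects were called for both, at 2.05 and -1.97. Gpx8 (1.66) and Gstm1 (0.59) also rose without Cbfb, and Gpx3 (-1.76) and Gstz1 (-0.83) fell with the fusion. Gpx8 passed the filter only with the Cbfb-/- arrays, the group where it was high. Gpx3 was at -2.65 within arrays 1 and 2 and -0.88 within arrays 3 and 4. The Gpx8 call was lost in 4 of the 14 fits that left out 1 array, without Cbfb-/- replicate 1 or 3 or Cbfb+/+ replicate 1 or 2 (adjusted p up to 0.0751). The Gstm1 call was lost in 5 of them, without Cbfb-/- replicate 1 or 2 or any Cbfb+/+ array (adjusted p up to 0.0901), with quantile normalization (0.42) and with the replicate block (adjusted p = 0.0637). In the fusion cross these 3 genes differed between the pairs. Within arrays 1 and 2, Gpx8 (1.10) and Gstm1 (-0.75) were called and Gsta4 (0.08) was not. Within arrays 3 and 4, Gsta4 (-0.59) was called, and Gpx8 (-0.37) and Gstm1 (0.28) were not.

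NADPH is the electron source of glutathione and thioredoxin reduction. Of 10 tested genes listed for its supply, 4 rose and 1 fell with the fusion, and 5 rose and 0 fell without Cbfb. Among all tested genes, 30.5% rose and 5.63% fell with the fusion, and 19.5% rose and 6.66% fell without Cbfb. Not every listed gene makes NADPH itself. Tkt and Taldo1 of the pentose phosphate pathway, and Nadk, are among those that do not, and the list was not restricted to NADPH producers. G6pdx, the first dehydrogenase of that pathway, had no usable probe set. Tkt, the transketolase of the pentose phosphate pathway, was at 10.99, 11.02, 11.38 and 11.39 in Cbfb+/MYH11 arrays against 9.12, 9.40, 10.01 and 9.94 in WT arrays. It was at 10.96, 10.94 and 10.93 in Cbfb-/- arrays against 10.05, 9.97 and 9.91 in Cbfb+/+ arrays. Mutant arrays lay above littermates in both crosses, with changes of 1.57 (adjusted p = 1.27e-05; 1.74 within arrays 1 and 2 and 1.40 within arrays 3 and 4) and 0.97 (adjusted p = 0.00342). Me2, a mitochondrial malic enzyme, rose by 1.27 and 0.90, and the folate cycle dehydrogenase genes Mthfd1 (0.98 and 0.61) and Mthfd2 (1.29 and 0.92) rose in both as well. With quantile normalization both Mthfd1 calls (0.58 and 0.39) and the Mthfd2 call without Cbfb (0.68, adjusted p = 0.0655) were lost, and the Mthfd1 call without Cbfb was also lost with the mean of its probe sets (0.55) and without Cbfb+/+ replicate 3 (0.56). Idh2, the mitochondrial NADP-dependent isocitrate dehydrogenase, rose without Cbfb (1.18, adjusted p = 0.00402), which was lost with the mean of its probe sets (0.53), and its difference between the mutant effects of -1.58 was called. Pgd, the second dehydrogenase of the pentose phosphate pathway, fell with the fusion (-0.59, adjusted p = 3.69e-05). That call was lost with arrays centred on their medians (-0.48), within arrays 3 and 4 (-0.44), with the mean of its probe sets (-0.33) and without Cbfb+/MYH11 replicate 2 (-0.56), WT replicate 1 (-0.58) or WT replicate 2 (-0.54).

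Of the 6 tested genes of haem and methaemoglobin handling, 1 rose and 1 fell with the fusion and 0 rose and 3 fell without Cbfb. The shares of all tested genes were 30.5% higher and 5.63% lower with the fusion, and 19.5% and 6.66% without Cbfb. Hmox1, the haem oxygenase that opens the haem ring to biliverdin, was at 9.21, 9.30, 9.42 and 9.40 in Cbfb+/MYH11 arrays against 10.72, 10.81, 10.26 and 10.29 in WT arrays. It was at 8.90, 8.91 and 8.97 in Cbfb-/- arrays against 9.53, 9.61 and 9.53 in Cbfb+/+ arrays. It fell in both without overlap, by a log2 change of -1.19 (adjusted p = 5.51e-06; -1.51 within arrays 1 and 2 and -0.86 within arrays 3 and 4) and -0.63 (adjusted p = 0.00442), and the call without Cbfb was lost with arrays centred on their medians (-0.57). Hmox1 is also strongly expressed in macrophages. Their markers fell in 7 of 10 tested genes with the fusion and in 10 of 10 without Cbfb, beside 5.63% and 6.66% of all tested genes. Of these markers, Mrc1, Tyrobp, Fcer1g, C1qa, C1qb and C1qc reached log2 6 only in WT and Cbfb+/+ arrays. They passed the filter through the littermate groups where they were high, and the counts are to be read with that limit. With the fusion the macrophage sum was lower in arrays 1 and 2 (923 to 931 against 2921 to 3351). It was higher in arrays 3 and 4 (1149 to 1156 against 796 to 811). There Csf1r, Lyz2, Cd14 and Cd68 were higher with the fusion, and the other macrophage genes of the sum were lower. The part of macrophages in the Hmox1 fall was not tested. Blvra, the biliverdin reductase of the step after haem oxygenase, rose with the fusion (1.72, adjusted p = 1.79e-07), and the difference between the mutant effects was called (1.67). Blvra reached log2 6 only in the Cbfb+/MYH11 arrays, so it passed the filter through the group where it was high. Cyb5a, the cytochrome that passes electrons to methaemoglobin, fell without Cbfb (-0.85, adjusted p = 2.68e-04), as did the haem-binding protein gene Hebp1 (-0.66, adjusted p = 0.00275).

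Of 11 other tested peroxiredoxin and thioredoxin genes, 2 rose and 1 fell in each mutant comparison. For this list and those that follow, 30.5% of all tested genes rose and 5.63% fell with the fusion. Without Cbfb 19.5% rose and 6.66% fell. Srxn1, which repairs over-oxidised peroxiredoxins, fell with the fusion (-0.98), where Txnl1 (1.30) and Selenos (0.66) rose; the Selenos call was lost with quantile normalization (0.32) and without WT replicate 1 (0.58). Without Cbfb, Txnip, the inhibitor of thioredoxin, fell (-0.62, adjusted p = 0.00277), and Prdx4 (1.06) and Nxn (0.83) rose. The Txnip call was lost with arrays centred on their medians (-0.56) and with the mean of its probe sets (-0.38). The Prdx4 call was lost with quantile normalization (0.82), with no filter on low signals (adjusted p = 0.0588) and in 9 of the 14 fits that left out 1 array (adjusted p up to 0.102): those without any Cbfb-/- or Cbfb+/+ array or Cbfb+/MYH11 replicate 2, 3 or 4. The Nxn call was lost with quantile normalization (0.64), with no filter (adjusted p = 0.0512) and without Cbfb-/- replicate 1 or 2 or Cbfb+/+ replicate 2 or 3 (adjusted p up to 0.118). With the fusion Prdx4 was at 1.29 within arrays 1 and 2, called, and 0.26 within arrays 3 and 4, not called. Of 5 genes of selenoprotein synthesis, on which glutathione peroxidases and thioredoxin reductases depend, Eefsec (0.91), Secisbp2 (0.90) and Sephs2 (0.85, a call lost with quantile normalization at 0.52) rose with the fusion, and Sephs1 (1.10) and Eefsec (0.92) rose without Cbfb. Secisbp2 passed the filter only through the Cbfb+/MYH11 arrays. With the fusion Sephs1 was at 1.08 within arrays 1 and 2, called, and -0.19 within arrays 3 and 4, not called. In the list of superoxide and repair, 3 of 7 genes rose with the fusion and 1 of 7 without Cbfb. Pon2, a membrane-bound lactonase, was at 7.06, 7.33, 7.25 and 7.29 in Cbfb+/MYH11 arrays against 4.64, 4.96, 5.34 and 5.22 in WT arrays, a rise of 2.19 (adjusted p = 7.69e-08) with no overlap. It was at 5.18, 5.45 and 5.36 in Cbfb-/- arrays against 5.62, 5.66 and 5.59 in Cbfb+/+ arrays. Pon2 thus reached the filter's log2 6 only in the Cbfb+/MYH11 arrays, the group where it was high. Its difference between the mutant effects was 2.49 (adjusted p = 2.87e-06). Romo1 (0.82) rose with the fusion, a call lost with quantile normalization (0.44). Park7, which encodes the peroxide-sensing protein DJ-1, rose in both (0.62 and 0.73), and lost both calls with quantile normalization (0.28 and 0.53). Its fusion call was also lost within arrays 3 and 4 (0.45), without WT replicate 1 (0.52) and without WT replicate 2 (0.57).

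Each member was also set beside the other tested genes by Pearson's r of the log2 signal over the 14 arrays, as a description of like patterns over arrays that share groups and pools. The 3 genes most like Cat were Tent5c (0.97), Fmo2 (0.97) and Rfk (0.96). Those most like Sod2 were Plek2 (0.98), Ly6e (0.96) and Cmtm7 (0.95), and those most like Prdx3 were Klf13 (0.97), Asns (0.96) and Npl (0.96). Txnrd1 was closest to Ddx3x (0.98), Hnrnph3 (0.98) and Pspc1 (0.97). Gpx1 was closest to Ccndbp1, Fam214b and Mxd1 (0.98 each), and Gpx4 to Sh3bgrl3 (0.98), Mospd3 (0.97) and Prss44 (0.97). Sod1 was closest to Rps24 (0.95), Arrb2 (0.94) and Stmn3 (0.92), and Blvrb to Tab3 (0.96), Cited2 (0.94) and Fcho2 (0.94). The brighter Prdx2 probe set, which varied little, reached no more than 0.82 (Acin1), followed by Mark1 (0.80) and Adamts10 (0.80).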

How the data were processed

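Total RNA of embryonic peripheral blood was biotin-labelled and hybridised to Affymetrix mouse arrays, per the labels' protocols. The authors' deposited values are log2 signals made with RMA in Affymetrix Expression Console, per the submitters' processing notes. Versions are not given in the sources used here. The 45101 probe sets on 14 arrays were used as deposited, and 0 columns belonged to other samples. The number of arrays, 3 or 4 a group, limits the precision.

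Probe sets were named from the platform annotation: 34945 carried 1 symbol, 932 several, 9160 none, and 64 were controls. For 34741 the gene identifier was found in RefSeq (GRCm38.p6), which changed 0 symbols. Each gene took its probe set with the highest mean, and genes at log2 6 or more in at least 3 arrays were tested.

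Group means of all 14 arrays were fitted with limma 3.58.1 (R 4.3.3; lmFit, contrasts.fit, eBayes) with no covariate, 10 residual and 2.82 prior degrees of freedom. All 4 groups share 1 estimate of spread per gene. Intervals and p-values without Cbfb therefore also carry the spread of the fusion cross. With each cross fitted alone, 2484 genes were called with the fusion and 2208 without Cbfb, against 2671 and 1935 in the joint fit. Of the 9 enzymes, 3 and 1 were called either way. Contrasts were each mutant against its littermates, the fusion effect minus the Cbfb-/- effect, and Cbfb+/+ littermates set against WT littermates. P-values were adjusted by Benjamini and Hochberg over all genes, or all 12190 probe sets, of a contrast, and intervals are 95% intervals. Calls required a 1.5-fold change or more besides an adjusted p below 0.05. The fit was tested on simulated data.

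The genes, lists, markers and array pairs were chosen with earlier results of these data known. The text names all 10 enzymes, up to 5 other redox genes that rose and 5 that fell per mutant comparison by adjusted p, all called genes of a list with 5 or fewer, Nfe2l2, Keap1, Bach1 and Hmox1, and for each enzyme the 3 genes of highest correlation. Gpx3 and Gstz1 were named, the Prdx2 probe set 1430979_a_at was singled out and the 5 printed promoters were chosen after values were seen. Comparisons that share arrays (the difference, and Cbfb+/+ against WT) are not independent of the others.

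Same-numbered arrays of the fusion cross deviated together from their group means (r = 0.52, 0.41, 0.50 and 0.50), so the numbers pair them there, though arrays 1 with 2 and 3 with 4 did so as much (0.42 to 0.51). In the Cbfb-/- cross they did not (0.03, 0.01 and 0.02). Alternatives were other scalings, filters, probe set rules, variance priors and samples in the fit, blocks by number or array pair, arrays averaged to 6 putative pools, and each array left out.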

Additional observations from a re-analysis of the deposited data

Results flagged for a closer look

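Among 52 groups of 4 arrays examined, 4 held 1 array whose gap to its nearest neighbour took up most of the group's range; chance gives such a gap in about 1 in 20 groups. The share of the range was 0.983 for Prdx3 in Cbfb+/MYH11 blood, where array 1 (10.34) lay below the others (10.51 to 10.52), and 0.939 for the Cat probe set 1416429_a_at in Cbfb+/MYH11 blood, where array 2 (10.34) lay above the others (10.13 to 10.14). It was 0.857 for the Sod2 probe set 1448610_a_at in Cbfb+/MYH11 blood, where array 1 (8.84) lay below the others (9.14 to 9.19), and 0.831 for the Prdx1 and Gm21399 probe set 1436691_x_at in WT blood, where array 1 (11.31) lay below the others (11.55 to 11.60). In the fits that left these arrays out 1 at a time, Prdx3 and this Cat probe set kept their fusion calls and this Sod2 probe set lost its call without Cbfb+/MYH11 replicate 1 (-0.54).

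The effects of the 2 mutants differed by the test of the difference itself in 3 cases: Sod2 (-0.62, fusion effect minus Cbfb-/- effect), the Prdx1 and Gm21399 probe set 1416000_a_at (-0.64) and the Prdx2 probe set 1430979_a_at (1.90). Their intervals and adjusted p-values stand with the genes above. The mutants differ in cross and littermates as well as in allele, which cannot be told apart.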

How the results depend on the processing

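When arrays were averaged to 6 putative pools, 2 a group in the fusion cross and 1 a group in the Cbfb-/- cross, the log2 changes stayed as reported (for example -0.90 for Cat with the fusion and 0.71 for Txnrd1 without Cbfb), but all residual spread came from the fusion cross. There, 0 of the 9 enzymes and 0 of the 69 other redox genes were called in any of the 4 comparisons. The fit called 18 genes in all with the fusion and 0 in the other comparisons, with 2152, 336, 571 and 413 genes at an unadjusted p under 0.05. Without the fold floor the enzymes called were 5 with the fusion, 2 for the difference and 2 between littermates, and the other redox genes 44 with the fusion, 36 without Cbfb and 17 between littermates. With quantile normalization the enzymes called were 0 without Cbfb and 3 for the difference, with arrays centred on their medians 0 for the difference, and with the mean of probe sets 0 between littermates; the last setting called 14 other redox genes without Cbfb. It also reversed Prdx2 without Cbfb (-1.23) and Prdx2 in the difference (0.86), since it averages the 2 probe sets that disagree. Leaving out 1 array at a time gave 3 enzymes with the fusion in every fit and 0 to 2 for the difference. That count was 0 without Cbfb+/MYH11 replicate 2 and 2 without WT replicate 1, 3 or 4. With the replicate block, the 3 fusion calls among the enzymes were kept (Cat adjusted p = 2.48e-05) and no call of the 9 enzymes changed; Tkt (0.61), Txnl1 (0.87) and the Prdx1 and Gm21399 probe set 1433866_x_at (-0.63) gained a call for the difference, Prdx4 (0.78) gained one with the fusion, Hif1a (-0.64) gained one between littermates, and Gstm1 lost its calls without Cbfb and for the difference (adjusted p = 0.0637 and 0.0724). Quantile normalization moved the median of all genes to -0.02 with the fusion and -0.04 without Cbfb, and the share of calls that were higher to 55.6% and 52.7%, against 84.4% and 74.6% as deposited. For the difference it was 59.0% against 71.0%.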
